A study of Mus musculus with 10 samples.

Results

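Itaconate, nitric oxide and arginine metabolism was followed here through 6 named genes, of which 5 could be measured. The members are Acod1, Nos2, Arg1, Arg2, Ass1 and Slc7a2, chosen by name among the 19938 genes of the arrays. Each gene was read from the probe sets that carry its symbol alone, and the probe set with the highest mean was used where a gene has several. Acod1 (probe set 10416837), Nos2 (10379228), Arg1 (10368343), Arg2 (10396831) and Slc7a2 (10571444) have 1 such probe set each. Both probe sets that list Ass1 also list Gm5424, a transcribed pseudogene, so Ass1 is not analysed here.

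Marrow cells of male Swiss mice aged 4 to 6 weeks were cultured in medium with serum and calcitriol, the hormonally active vitamin D, in every culture. The adiponectin cultures received recombinant mouse adiponectin, a hormone made by fat cells, at 5 µg/ml, and the control cultures are labelled both as vehicle-treated and as untreated. RNA from 1 culture of each arm was hybridised to an Affymetrix array at each of 5 times, 4, 10, 24, 72 and 120 h, so the 10 arrays form 5 pairs. Contamination with lipopolysaccharide, a bacterial endotoxin, is named in the series title, and effects of the hormone and of any endotoxin in its preparation cannot be told apart in this design. Whether separate cultures stand for separate animals is not stated in the labels, so the p-values cannot be read as covering a spread between animals. The spread they rest on is that between cultures and may be technical. For the adiponectin effect it also holds any change of that effect with time, since each time has 1 culture of each arm. For the slopes it also holds any departure from a straight line.

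Macrophages use these genes to spend central metabolites on defence. Acod1 encodes the mitochondrial enzyme that decarboxylates cis-aconitate from the citric acid cycle to itaconate, which inhibits succinate dehydrogenase. Nos2 encodes the inducible nitric oxide synthase, which turns arginine into nitric oxide and citrulline. Slc7a2 encodes CAT2, a carrier that brings arginine into the cell, and Ass1 encodes the enzyme that starts the return of citrulline to arginine. Arg1 (cytosolic) and Arg2 (mitochondrial) encode the arginases, which split arginine into ornithine and urea and so compete with the synthase for it. Acod1 and Nos2 are classical genes of endotoxin- and interferon-stimulated macrophages, and Arg1 is best known from interleukin 4-stimulated ones.

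Acod1 and Slc7a2 rose in the adiponectin cultures, and Nos2, Arg1 and Arg2 did not pass the test. Acod1 was 8.21-fold higher on average and Slc7a2 was 1.86-fold higher, each higher in 5 of 5 pairs, as was Nos2, where 6.32% of all genes were. Thus 2 of 5 measured members rose and none fell past an adjusted p of 0.05 (limma, time point as a block), where 2.05% of all 19938 genes rose and 0.371% fell. The median difference of the 5 members was 0.89 on the log2 scale, and that of all genes was 0.01. Acod1, Nos2 and Slc7a2 had no overlap between the arms, with every adiponectin array above every control array, as did 1.53% of all genes. Arg1 and Arg2 overlapped.

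**Figure D1:**
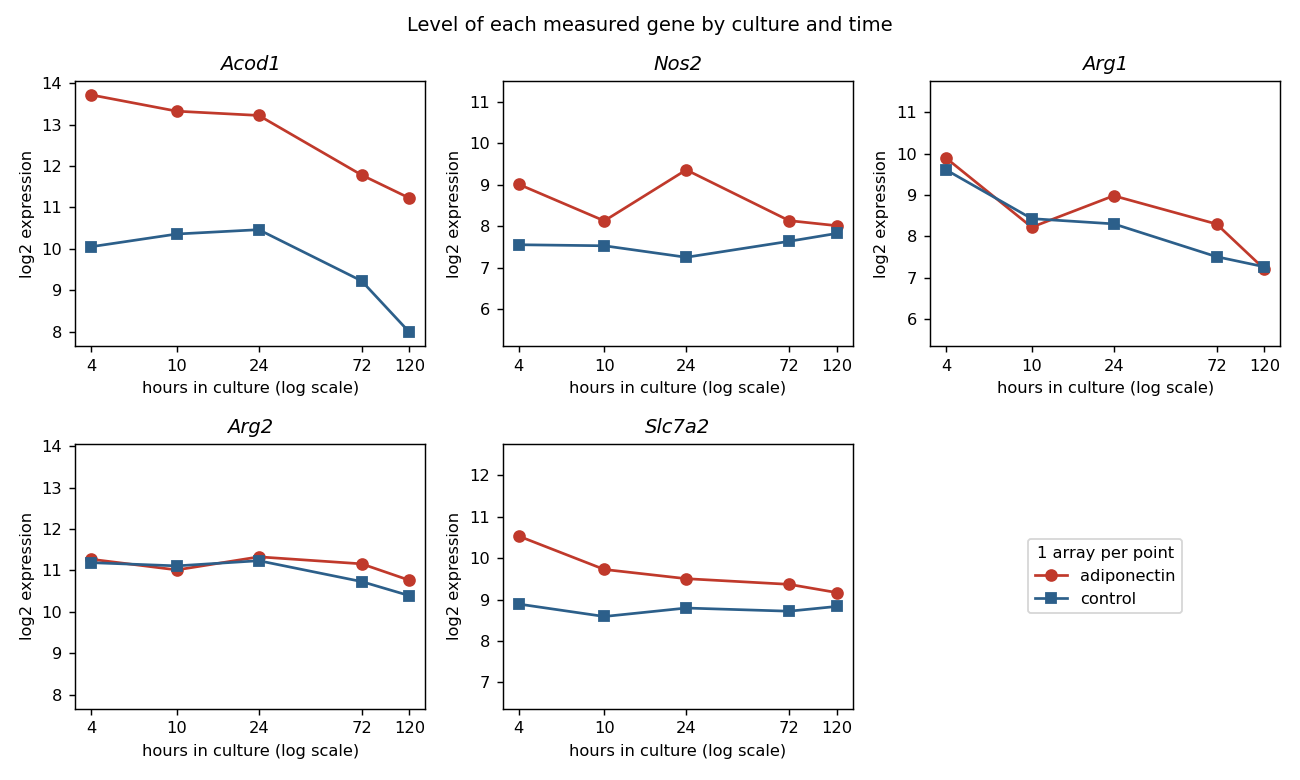
Log2 expression (vertical axes, all panels spanning the same range) of the 5 measured genes against hours in culture on a log scale, with 1 array per point, in adiponectin (red circles) and control cultures (blue squares). Acod1, Nos2 and Slc7a2 lie higher in adiponectin cultures at every time, whereas the Arg1 and Arg2 curves cross.

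Acod1, the itaconate-making enzyme, is shown with the 250 bases before its RefSeq start because it had the largest difference of the group. The stretch is chr14:103046762-103047011 on the plus strand of GRCm38.p6, credited to RefSeq. Of the 6 members, 2 have an entry in the promoter table used, Acod1 and Ass1. Capitals mark matches to the motifs searched, on both strands.
Acod1: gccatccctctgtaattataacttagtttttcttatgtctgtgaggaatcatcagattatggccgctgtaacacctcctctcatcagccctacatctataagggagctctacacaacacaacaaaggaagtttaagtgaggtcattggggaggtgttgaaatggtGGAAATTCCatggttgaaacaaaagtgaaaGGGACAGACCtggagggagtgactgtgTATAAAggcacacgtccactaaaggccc

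The motifs were picked after the sequence had been read, and a match is only a description. The NF-kB type motif GGAAATTCC starts 85 bases before the gene start, and 0.286% of 32851 mouse promoter entries of the same length hold it. The looser NF-kB form, GGG and CC with any 5 bases between them, starts 55 bases before it and is held by 45.8% of entries. A TATAAA box starts 28 bases before it (12.4% of entries). The matches do not overlap one another. The letters of the interferon response motif, GAAA and GAAA with any 2 bases between them (2.98% of entries), of the STAT motif TTCNNNGAA (7.02%) and of the AP-1 motif TGANTCA (6.75%) are not in this window. No looser form of these motifs was searched, so other forms of them may be present.

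Acod1 read 13.72, 13.32, 13.22, 11.78 and 11.22 on the log2 scale in adiponectin cultures at 4, 10, 24, 72 and 120 h. In control cultures it read 10.05, 10.36, 10.46, 9.23 and 7.99. The lowest adiponectin array, at 120 h, was still above the highest control array, at 24 h. The fold at each time was 12.7, 7.81, 6.77, 5.88 and 9.44, so it was largest at 4 h and smallest at 72 h. The mean difference was 3.04 ± 0.43 on the log2 scale (SD, n = 5 pairs; 95% interval 2.74 to 3.34; limma adjusted p = 1.14e-06). At every time Acod1 was among the genes at least 2-fold higher, which made up 0.727% of genes at 4 h, 0.893% at 10 h, 0.853% at 24 h, 0.547% at 72 h and 0.752% at 120 h. The call stood in all 12 alternatives run, with adjusted p from 4.09e-08 to 0.0393 (limma).

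The levels of Acod1 were put in order. All 5 adiponectin arrays came first, in the order of their times, followed by the 24, 10, 4, 72 and 120 h controls. Of the 9 steps between neighbours in that order, 7 exceeded 0.30, the spread of a difference between 2 arrays from the moderated SD of the fit. That SD, 0.22, is drawn by limma towards the values of all genes. The residual SD of Acod1 itself was larger, at 0.31, so a spread from its own residuals would be wider. The spreads of the other members were formed likewise, and their residual SDs were also the larger. The largest step, 1.44, lay between the adiponectin arrays at 24 and 72 h.

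Slc7a2, the arginine carrier, read 10.54, 9.73, 9.51, 9.37 and 9.17 on the log2 scale in adiponectin cultures from 4 to 120 h. In control cultures it read 8.89, 8.59, 8.80, 8.72 and 8.84. The adiponectin level was highest at 4 h and lower at each later time, while the control levels spanned 0.30. The fold was 3.12, 2.20, 1.63, 1.57 and 1.26, and it was smaller at each successive time, as in 2.06% of all genes. The mean difference was 0.89 ± 0.51 (SD, n = 5 pairs; 95% interval 0.55 to 1.23; limma adjusted p = 0.00944). The call was lost without the 10 h pair (adjusted p = 0.0507) and without the pairing by time (adjusted p = 0.136), and 10 of 12 alternatives kept it.

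In the order of the Slc7a2 levels, 1 of 9 neighbouring steps exceeded the spread of 0.34, the step of 0.81 between the adiponectin arrays at 4 and 10 h. The adiponectin array at 120 h and the control array at 4 h, which meet in the middle of the order, did not differ beyond that spread.

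Nos2, the inducible nitric oxide synthase, read 9.01, 8.13, 9.36, 8.13 and 8.01 on the log2 scale in adiponectin cultures from 4 to 120 h. In control cultures it read 7.55, 7.53, 7.25, 7.64 and 7.83. The adiponectin arrays at 4 and 24 h stood high, and the other 3 lay close to the controls. The fold was 2.75 at 4 h, 1.52 at 10 h, 4.32 at 24 h, 1.41 at 72 h and 1.14 at 120 h. The mean difference, 0.97 ± 0.79 (SD, n = 5 pairs; 95% interval 0.47 to 1.47), was larger than that of Slc7a2 but had a wider spread and did not pass (limma adjusted p = 0.0560). It passed in 3 of 11 alternatives, namely without the 72 h pair (0.0284), without the 120 h pair (0.0293) and with arrays centred on their medians (0.0342), in limma adjusted p. The mean over arrays lay at the 42.8th percentile of all genes, and no measure of its signal above background was at hand. In the order of the Nos2 levels 1 of 9 steps exceeded the spread of 0.51, the one of 0.88 between the adiponectin arrays at 4 and 72 h.

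**Figure D2:**
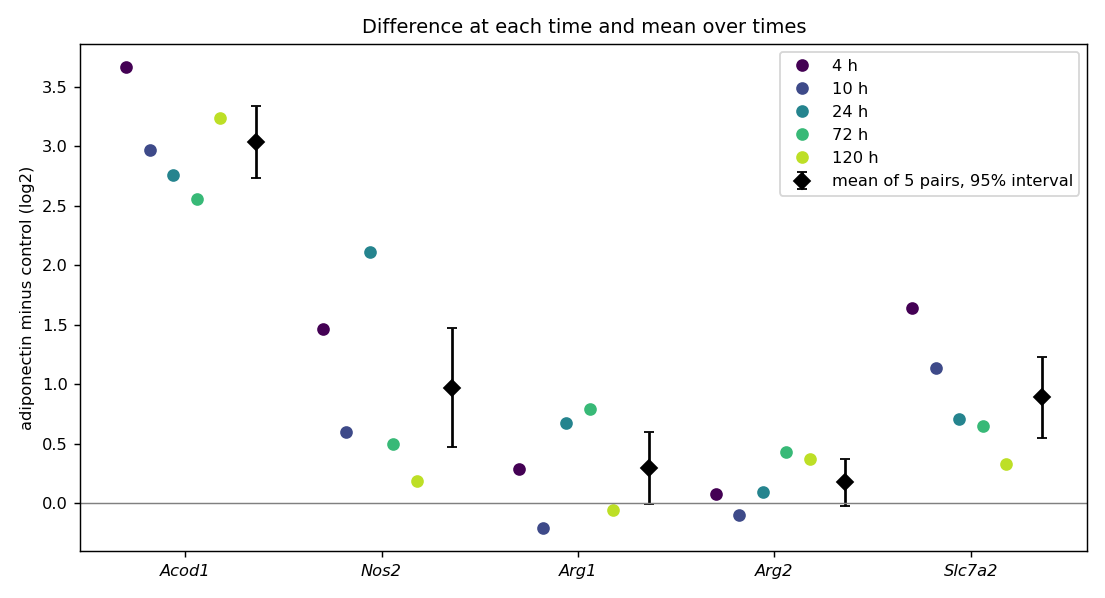
Adiponectin minus control on the log2 scale (vertical axis) for each measured gene, with a coloured dot per time and a black diamond for the mean of 5 pairs with its 95% interval. The Slc7a2 dots descend from 1.64 at 4 h to 0.33 at 120 h, Nos2 is highest at 24 h, and the Acod1 dots lie between 2.56 and 3.67.

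Arg1, the cytosolic arginase, read 9.89, 8.22, 8.98, 8.30 and 7.21 on the log2 scale in adiponectin cultures from 4 to 120 h. In control cultures it read 9.61, 8.43, 8.30, 7.51 and 7.27. The 2 arms ran close together, and the adiponectin array was the higher of the pair at 4, 24 and 72 h. The differences were 0.29, -0.21, 0.68, 0.79 and -0.06 from 4 to 120 h. Their mean was 0.30 ± 0.44 (SD, n = 5 pairs; 95% interval -0.0047 to 0.60; limma adjusted p = 0.507), so a rise of up to 0.60 is within the interval. In the order of the Arg1 levels 3 of 9 steps exceeded the spread of 0.31.

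Arg2, the mitochondrial arginase, read 11.27, 11.01, 11.33, 11.16 and 10.76 on the log2 scale in adiponectin cultures from 4 to 120 h. In control cultures it read 11.19, 11.11, 11.23, 10.73 and 10.39. The arms were within 0.10 of each other up to 24 h, and the adiponectin array was higher by 0.43 at 72 h and by 0.37 at 120 h. The mean difference was 0.18 ± 0.22 (SD, n = 5 pairs; 95% interval -0.02 to 0.37; limma adjusted p = 0.587). In the order of the Arg2 levels 2 of 9 steps exceeded the spread of 0.20. No alternative called either arginase gene for the adiponectin effect.

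The members at least 2-fold higher in adiponectin cultures numbered 3, 2, 2, 1 and 1 of 5 from 4 to 120 h, beside 0.727%, 0.893%, 0.853%, 0.547% and 0.752% of all genes. They were Acod1, Nos2 and Slc7a2 at 4 h, Acod1 and Slc7a2 at 10 h, Acod1 and Nos2 at 24 h, and Acod1 alone at 72 and 120 h. With 1 array per arm at each time these single differences have no test. The change of the difference per doubling of time was tested across all times. It was -0.24 for Slc7a2 (95% interval -0.34 to -0.15), with an unadjusted limma p of 0.00026 and an adjusted p of 0.236 over all genes. For Nos2 it was -0.21 (-0.47 to 0.06; limma adjusted p = 0.541) and for Acod1 -0.11 (-0.27 to 0.05; limma adjusted p = 0.568). For Arg2 it was 0.09 (-0.0038 to 0.18; limma adjusted p = 0.512) and for Arg1 0.04 (-0.14 to 0.22; limma adjusted p = 0.862). No gene on the arrays passed this limma test (0 rose and 0 fell, 0.0% of genes each), although 620 and 1339 genes had positive and negative changes at an unadjusted p under 0.05. That balance depended on the scaling, with 803 and 581 genes after repeated quantile normalization and 1709 and 322 with arrays centred on their medians. With an intensity trend and robust prior 2 and 3 genes passed.

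Several members changed with time in culture. Any change with time, tested over the 5 time points with the arms together, was called for 3 of 5 measured members, Acod1, Arg1 and Arg2, where 14.4% of all genes were called. The limma adjusted p was 5.47e-05 for Acod1, 0.000133 for Arg1 and 0.0280 for Arg2. It was 0.274 for Slc7a2 and 0.794 for Nos2. Without the 24 h or the 120 h arrays the Arg2 call was lost (adjusted p = 0.0618 and 0.408).

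Slopes over log2 hours were then fitted in each arm. In adiponectin cultures 3 of 5 measured members fell and 0 rose, where 3.46% of all genes fell and 4.15% rose. Acod1 had a slope of -0.51 per doubling of time (95% interval -0.77 to -0.25; limma adjusted p = 0.0272), Arg1 of -0.41 (-0.62 to -0.19; 0.0332) and Slc7a2 of -0.24 (-0.34 to -0.15; 0.00903). Nos2 had a slope of -0.16 (-0.36 to 0.04; limma adjusted p = 0.379) and Arg2 of -0.06 (-0.17 to 0.04; 0.541). Between 4 and 120 h the level in adiponectin cultures fell by 2.49 for Acod1, by 2.68 for Arg1 and by 1.37 for Slc7a2 on the log2 scale.

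In control cultures 1 of 5 measured members fell, Arg1, and 0 rose, where 4.45% of all genes fell and 4.64% rose. Its slope was -0.44 per doubling (95% interval -0.66 to -0.23; limma adjusted p = 0.0236). Acod1 had a slope of -0.40 (-0.66 to -0.14; limma adjusted p = 0.0594) and Arg2 of -0.15 (-0.26 to -0.05; 0.0719), both short of the threshold. Nos2, at 0.05 (-0.15 to 0.25; limma adjusted p = 0.752), and Slc7a2, at -0.0012 (-0.09 to 0.09; 0.988), had slopes near 0. Over all genes 925 rose and 888 fell in control cultures, but 590 and 1694 with arrays centred on their medians, which also called Acod1 and Arg2 as falling.

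The calls of these slopes depended on which times were included. Without the 72 h or without the 120 h arrays 0 of 5 members passed in either arm, while the slopes in adiponectin cultures were -0.50 and -0.44 for Acod1, -0.26 and -0.27 for Slc7a2, and -0.47 and -0.29 for Arg1. The control slope of Arg1 was then -0.44 and -0.47. Counts over all genes also dropped, to 63 rising and 50 falling without 72 h and to 23 and 15 without 120 h in adiponectin cultures, and to 6 and 27 and to 5 and 17 in control cultures. Without the 4 h arrays the calls of Arg1 in both arms (limma adjusted p = 0.358 in adiponectin and 0.137 in control cultures) and of Slc7a2 in adiponectin cultures (0.0616) were lost. The slopes were then -0.27 in adiponectin and -0.35 in control cultures for Arg1, and -0.14 for Slc7a2 in adiponectin cultures, its smallest with 1 time left out. Without the 10 h arrays the Acod1 call in adiponectin cultures was lost (0.0894), and without the 24 h arrays that of Arg1 there (0.0510). An intensity trend and robust prior ended the calls of Acod1 (0.0573) and Arg1 (0.0588) in adiponectin cultures, and a fit of those 5 arrays alone ended that of Arg1 (0.0870).

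**Figure D3:**
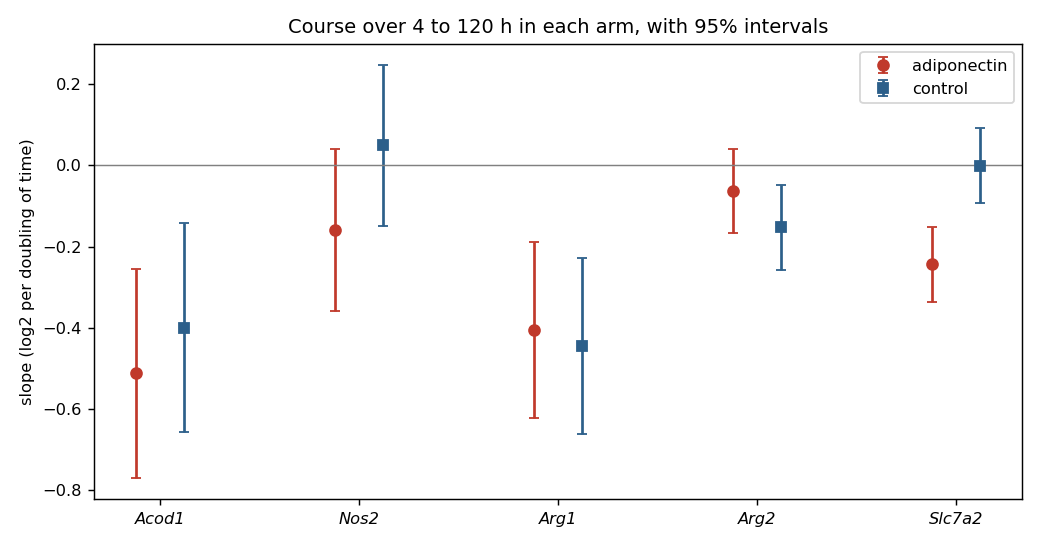
Slope of log2 expression per doubling of time (vertical axis) for each measured gene in adiponectin (red circles) and control cultures (blue squares), with 95% intervals from the fit. The Slc7a2 slopes are -0.24 and -0.0012, a difference with an adjusted p of 0.236, and the intervals of Acod1 and of Arg1 overlap widely between the arms.

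Cell type markers moved over the same times. By slope, 3.46% of all genes fell and 4.15% rose in adiponectin cultures, and 4.45% fell and 4.64% rose in control cultures. Any change with time was called for 14.4% of all genes. The 13 neutrophil marker genes averaged 13.06, 13.04, 12.89, 11.79 and 10.35 on the log2 scale in adiponectin cultures from 4 to 120 h, against 13.27, 13.18, 13.04, 12.13 and 10.34 in control cultures. All 13 were called for any change with time, and by the slope test 5 fell and 0 rose in adiponectin cultures, while 7 fell and 1, Mmp9, rose in control cultures. Mast cell, basophil and eosinophil markers fell too (5 of 8 in adiponectin and 4 of 8 in control cultures), as did B cell (2 of 7 in each arm) and erythroid markers (3 of 6 in each arm). Of 8 dendritic cell markers 5 fell and 0 rose in adiponectin cultures, while 1 fell and 1, Itgax, rose in control cultures. Of 7 monocyte markers 0 fell in adiponectin and 3 in control cultures. Other lists moved upward, with 5 of 9 stromal and osteoblast markers rising in adiponectin and 3 of 9 in control cultures, and 3 of 11 macrophage markers in adiponectin and 2 of 11 in control cultures. Of 10 T and NK cell markers 4 rose and 1 fell in adiponectin cultures, and 0 rose and 1 fell in control cultures. The 9 osteoclast markers averaged 9.97 at 4 h and 11.59 at 120 h in adiponectin cultures, against 9.98 and 11.96 in control cultures, and all 9 were called for any change with time. By slope 3 rose and 1, Itgb3, fell in adiponectin cultures, and 7 rose and 0 fell in control cultures. A call in 1 arm alone does not show that the arms differ, and no gene passed the test of that difference. The part of such shifts in the courses of the members was not tested, and in bulk RNA fewer cells of a type and less RNA per cell cannot be told apart.

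For the adiponectin effect, 2 of 11 measured macrophage markers rose, Marco and Fcgr1, and 0 fell, where 2.05% of all genes rose and 0.371% fell. The list averaged between 11.59 and 12.06 across adiponectin arrays and between 11.50 and 11.67 across control arrays. The list average was higher in adiponectin cultures in 5 of 5 pairs, at 11.59, 11.73, 11.93, 12.06 and 11.83 from 4 to 120 h, against 11.51, 11.50, 11.67, 11.56 and 11.53 in control cultures. The median difference of the 11 markers was 0.04, beside 0.01 for all genes, while Marco differed by 2.04 and Fcgr1 by 0.98. A higher average thus does not show that the markers rose as a set. Csf1r differed by -0.05 ± 0.10 and Cd68 by -0.06 ± 0.08 (SD, n = 5 pairs; limma adjusted p = 0.922 and 0.891). Adgre1 differed by 0.34 ± 0.25, Mertk by 0.23 ± 0.20 and Vsig4 by -0.52 ± 0.77 (limma adjusted p = 0.129, 0.331 and 0.433). These genes were named outside the rule. Of 7 measured monocyte markers 4 rose and 0 fell, though Plac8, Ms4a6c and Treml4 lost their calls when 1 pair was left out (limma adjusted p up to 0.153). The monocyte list had averages of 11.46 to 12.13 in adiponectin and 10.73 to 11.81 in control cultures. No neutrophil marker of 13 rose or fell, 1 of 8 dendritic cell markers fell (Cd209a) and 1 of 9 osteoclast markers fell (Atp6v0d2). Of the other lists, 1 of 6 endothelial markers rose (Kdr) and 1 of 8 mast cell, basophil and eosinophil markers fell (Ear6). Both lost their calls when 1 pair was left out (limma adjusted p up to 0.075 for Kdr and 0.0812 for Ear6). Any change with time was called for all 13 neutrophil, 5 of 7 B cell and 4 of 6 erythroid markers, beside 14.4% of genes. It was also called for all 9 osteoclast, 8 of 9 stromal and osteoblast, and 6 of 8 mast cell, basophil and eosinophil markers. In the monocyte list it was called for 4 of 7, in the dendritic cell list for 5 of 8 and in the macrophage list for 3 of 11. In the endothelial list it was called for 1 of 6, and in the T and NK cell list for 2 of 10. With no detection call at hand, such calls do not show which cells the cultures held. The part of the monocyte and macrophage markers in the Acod1 and Slc7a2 differences was not tested.

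**Figure D4:**
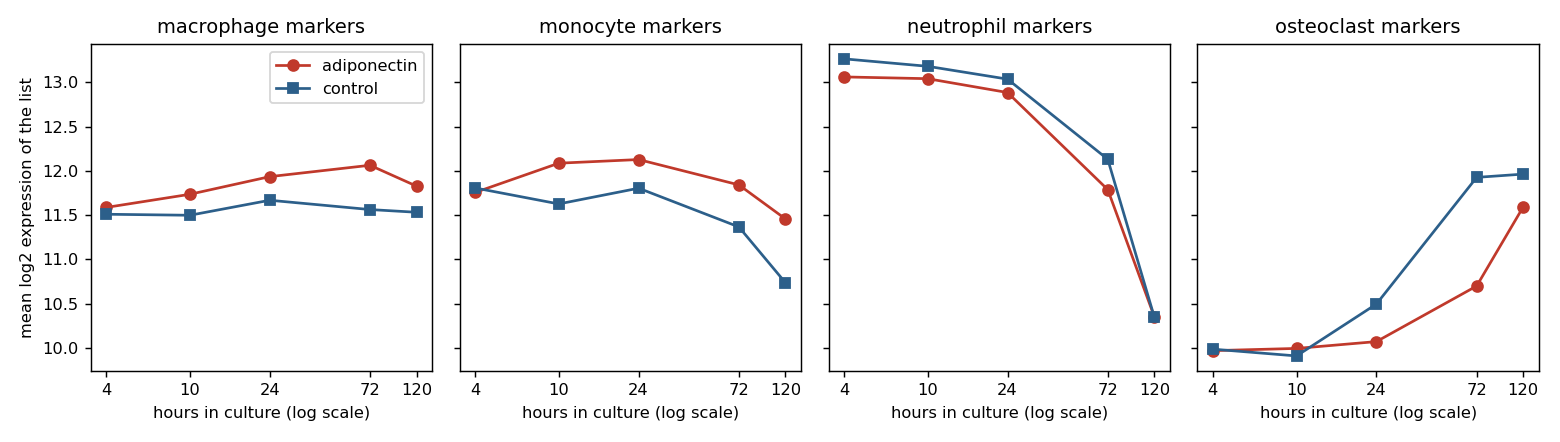
Mean log2 expression (shared vertical axis) of the macrophage, monocyte, neutrophil and osteoclast marker lists against hours in culture on a log scale, with 1 array per point, in adiponectin (red circles) and control cultures (blue squares). Neutrophil markers are at 10.35 in adiponectin and 10.34 in control cultures at 120 h, and osteoclast markers at 10.70 in adiponectin and 11.93 in control cultures at 72 h.

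Around the members, the genes that supply their substrates and use their products mostly did not pass. Of 21 measured genes of the source, target and breakdown of itaconate, 1 rose and 0 fell, where 2.05% of all genes rose and 0.371% fell. Their median difference was -0.03, beside 0.01 for all genes. The gene that rose was Slc13a3, a sodium-coupled dicarboxylate carrier that can take up itaconate. It read 10.45, 11.19, 12.73, 11.11 and 11.69 on the log2 scale in adiponectin cultures from 4 to 120 h, against 9.07, 9.17, 9.88, 10.27 and 10.40 in control cultures. Every adiponectin array was above every control array, and the fold was largest at 24 h, at 7.21, and smallest at 72 h, at 1.79. The mean difference was 1.68 ± 0.78 (SD, n = 5 pairs; limma adjusted p = 0.00175), but it did not pass with an intensity trend and robust prior (0.0705) or without the pairing (0.144). Keap1, the sensor that itaconate can modify, differed by 0.28 ± 0.10 (0.0814) and Idh1, a cytosolic isocitrate dehydrogenase, by -0.27 ± 0.24 (0.277), in limma adjusted p. Sdha, a subunit of the succinate dehydrogenase that itaconate inhibits, differed by -0.09 ± 0.20 (limma adjusted p = 0.847) and was named outside the rule.

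The 13 measured genes for the cofactor and control of nitric oxide synthases had a median of -0.01. Of them 1 rose and 0 fell, where 2.05% of all genes rose and 0.371% fell. The gene that rose was Gch1, which encodes the first and rate-limiting enzyme of tetrahydrobiopterin synthesis, the cofactor that the synthase needs. It read 8.57, 8.65, 8.93, 8.46 and 8.57 on the log2 scale in adiponectin cultures from 4 to 120 h, against 7.94, 7.72, 8.39, 8.04 and 7.93 in control cultures. The arms did not overlap, and the differences lay between 0.42 and 0.93. The mean difference was 0.63 ± 0.19 (SD, n = 5 pairs; 1.55-fold; limma adjusted p = 0.00183), and it missed the threshold only without the pairing (0.0539) among the 11 alternatives. Nosip, a protein that binds nitric oxide synthases, differed by 0.27 ± 0.16 (0.157) and Qdpr, which regenerates the cofactor, by -0.18 ± 0.25 (0.616), in limma adjusted p.

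Where 2.05% of all genes rose and 0.371% fell, arginine uptake and synthesis apart from the members showed no call. Its 11 measured genes had a median of 0.05. The largest absolute differences were those of Slc7a3, another cationic amino acid carrier (0.24 ± 0.13; limma adjusted p = 0.209), Cps1, the first enzyme of the urea cycle (0.14 ± 0.15; 0.639), and Slc7a7, part of an exchanger that exports arginine (0.12 ± 0.31; 0.847). Slc7a1, the constitutive arginine carrier CAT1, differed by 0.04 ± 0.21 (limma adjusted p = 0.942) and was named outside the rule. The 11 measured genes around polyamines and proline, which include genes of their breakdown and control, had a median of -0.02 and no call either. Smox, spermine oxidase, differed by 0.21 ± 0.11 (0.280), Srm, spermidine synthase, by -0.14 ± 0.19 (0.683) and Oaz2, an inhibitor of ornithine decarboxylase, by -0.14 ± 0.20 (0.702), in limma adjusted p.

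Among 12 genes of alternative macrophage activation, the state in which Arg1 is best known, 2 rose and 0 fell. Over all genes 2.05% rose and 0.371% fell. The median of the 12 was 0.02. The 2 were Ccl22, a chemokine gene (0.86 ± 0.51; limma adjusted p = 0.0119), and Cebpb, a transcription factor gene (0.38 ± 0.18; limma adjusted p = 0.0399). Ccl22 read 9.43, 9.10, 8.97, 8.33 and 7.75 in adiponectin cultures from 4 to 120 h, against 7.79, 8.32, 7.98, 7.72 and 7.47 in control cultures. Its difference was largest at 4 h, at 1.64, and smallest at 120 h, at 0.28. The Ccl22 call was lost without the 24 h pair (limma adjusted p = 0.0762) and without the pairing (0.517), among 11 alternatives, and the Cebpb call in 9 of 12 alternatives, among them the omission of each of the 5 pairs in turn (up to 0.119). Mrc1, the mannose receptor gene (-0.64 ± 0.56; limma adjusted p = 0.0903), and Clec10a, a lectin gene (-0.43 ± 0.68; 0.505), did not pass. Mrc1 was lower in adiponectin cultures in 5 of 5 pairs, with differences between -1.62 at 24 h and -0.28 at 120 h. Clec10a was lower in 4 of 5. How many of all genes were lower in as many pairs was not counted.

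**Figure D5:**
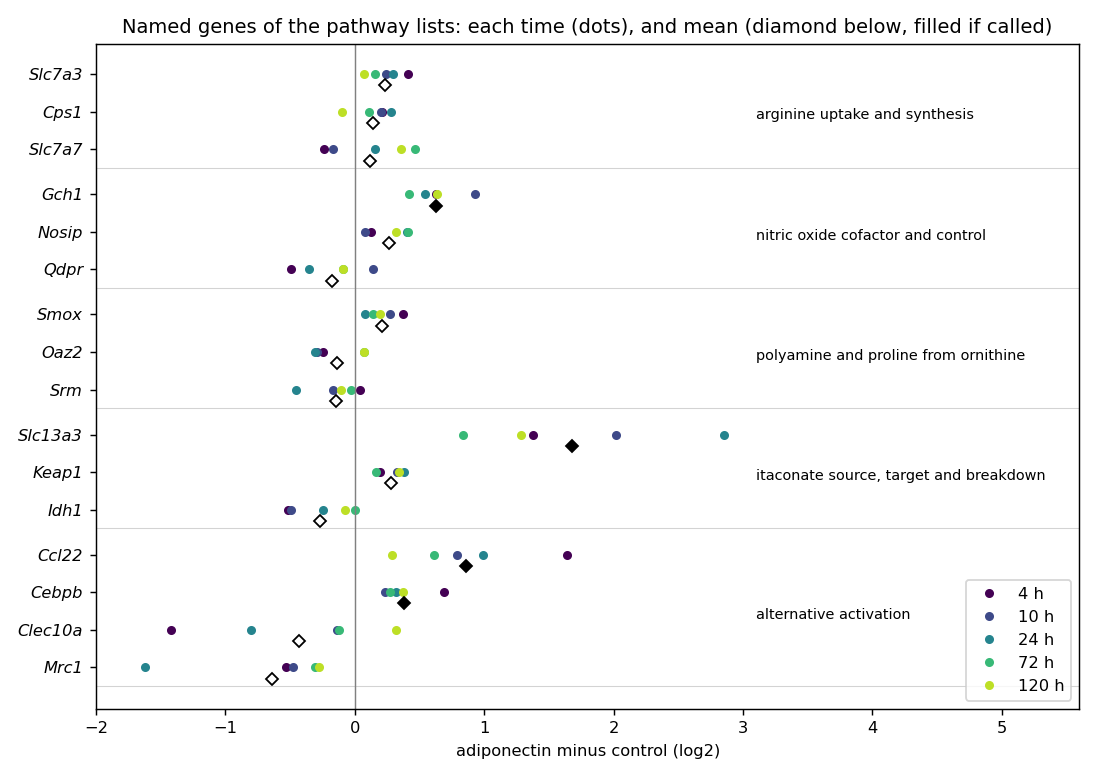
Adiponectin minus control on the log2 scale (horizontal axis) for the named genes of 5 pathway lists, with a coloured dot per time and a diamond for the mean, filled where the limma adjusted p is under 0.05. Slc13a3 reaches 2.85 at 24 h, and Gch1 lies between 0.42 and 0.93. Ccl22 reaches 1.64 at 4 h, Mrc1 -1.62 at 24 h and Clec10a -1.42 at 4 h.

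Across the 10 arrays, the genes most like each member differed between members. Likeness was Pearson's r over all arrays among genes spanning at least 1 on the log2 scale (2478 genes compared, 2479 for Arg2). These correlations describe arrays that share times and pairs. Closest to Acod1 were Cmpk2 (r = 0.988), a mitochondrial nucleotide kinase, Ifi205 (0.986), of the interferon-inducible p200 family, and Gm8995 (0.983). Closest to Slc7a2 were Tlr2 (0.986), a receptor for bacterial lipoproteins, Met (0.967), the receptor of hepatocyte growth factor, and Zc3h12c (0.960), a zinc finger protein. Closest to Nos2 were Socs1 (0.949), a cytokine signalling inhibitor, Rapgef2 (0.948), an exchange factor for Rap, and Il12b (0.945), a subunit of interleukins 12 and 23.

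The genes most like the arginases were others. Closest to Arg1 were Pim2 (r = 0.928), a kinase, Rhou (0.927) and Nrg4 (0.924), a growth factor of the epidermal growth factor family. Closest to Arg2 were Igkv10-96 (0.961), an immunoglobulin segment, B3gnt5 (0.951), a glycosyltransferase, and Csrnp1 (0.950), a nuclear protein. Among the members themselves, Acod1 and Slc7a2 correlated at 0.84, Arg1 and Arg2 at 0.81, Nos2 and Slc7a2 at 0.79, and Nos2 and Arg2 at 0.35 over the 10 arrays. Over the 5 differences, Arg2 and Slc7a2 gave -0.66, since the Arg2 difference was larger at 72 and 120 h while that of Slc7a2 was smaller there.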

How the data were processed

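Expression was deposited as log2 values, 1 per probe set and array, for 35556 probe sets on 10 arrays. RMA, Affymetrix Expression Console and Partek are named per the submitters' processing notes, with order, versions and genome build not given in the sources used here. Array medians over all probe sets lay between 7.90 and 8.08. The platform annotation gave 1 symbol for 21789 probe sets, several for 1621 and none for 12146. Symbols checked through Entrez IDs against RefSeq (GRCm38.p6, names only) changed in 0 cases, with 91 probe sets outside that table. No filter on dim genes was applied.

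Tests were two-sided and came from limma 3.58.1 (R 4.3.3; lmFit, then eBayes), with Benjamini-Hochberg adjustment over 19938 genes and a threshold of 0.05. The adiponectin effect was fitted beside time point as a block, so each treated culture was paired with the control of its own time, as the labels give it (4 residual degrees of freedom). With 1 pair per time, the spread over pairs also holds any change of the effect with time. A product of treatment and log2 hours, entered beside these terms, gave the change of the effect (3 residual degrees of freedom). Courses were slopes over log2 hours in each arm with a shared spread (6 residual degrees of freedom), and any change with time was a moderated F test of the time coefficients. The tests of the adiponectin effect, of its change and of the slopes were also run on simulated arrays. Those arrays had independent noise and effects of the fitted form. The run does not show how the tests behave where real cultures depart from that form. Precision is limited by the number of arrays.

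The members and lists were chosen with earlier results of these data known. Named genes were the members, in each pathway list those past the threshold and the 3 with the largest absolute mean difference, and the 3 genes most like each member. Listed genes without a probe set of their own symbol alone were not analysed here. Alternatives covered scaling, dim genes, the prior, probe set choice, the block, the time scale and each pair left out.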

Additional observations from a re-analysis of the deposited data

How the results depend on the processing

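Of 285 values of single members under the alternatives, 249 kept their direction and side of the threshold, 20 lost a call and 10 gained one. The 6 that changed sign all lay near 0. They were the change of the Acod1 effect per doubling of time without 4 h (0.028), that of Arg1 without 10 h (-0.012) and without 72 h (-0.026), and the control slope of Slc7a2 with the rank of the time in place of log2 hours (0.0014), without 4 h (0.050) and without 72 h (0.0057). With 1 time left out, those values ranged from -0.25 to 0.028 for Acod1, from -0.026 to 0.17 for Arg1 and from -0.023 to 0.050 for Slc7a2. The cause of changes was not tested unless the setting itself shows it.

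Without the replicate block, that is without pairing, 1 member passed for the adiponectin effect in place of 2 and 146 genes rose and 4 fell, against 408 and 74 with it. Fewer genes fell with log2 hours as a covariate instead (30) and more with the intensity trend and robust prior (117). For the change of the effect, centred arrays gave 1 rising gene and the trend and robust prior 2 rising and 3 falling, against 0 and 0. That prior left 1 member falling in adiponectin cultures, Slc7a2, in place of 3. In control cultures 3 members fell with centred arrays and 2 with ranked times, in place of 1. There 925 genes rose and 888 fell, against 590 and 1694 with centred arrays, 605 rising without dim genes, where 9969 genes were tested, and 513 and 490 with the arm alone.

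With 1 time left out, 1 to 3 members passed for the adiponectin effect, 0 to 2 for the adiponectin course, 0 to 3 for the control course and 2 to 3 for any change with time. Over all genes 292 to 379 rose and 21 to 62 fell for the adiponectin effect, and 0 to 1 rose for its change with time. In adiponectin cultures 23 to 868 rose and 15 to 940 fell, in control cultures 5 to 1476 rose and 17 to 1195 fell, and 1583 to 2807 were called for any change with time. Arg1 and Nos2, with means under the median of all genes, gave no value without dim genes. With no measure of signal above background at hand, little change in a dim gene does not show that it stayed the same.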

Other observations

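Some genes of the surrounding pathways changed over time without passing for the adiponectin effect. They are named by a slope call in either arm, and all but Clec10a lie outside the rule for named genes. By slope, 3.46% of all genes fell and 4.15% rose in adiponectin cultures, and 4.45% fell and 4.64% rose in control cultures. Without the 120 h arrays 38 genes in adiponectin and 22 in control cultures passed by slope. Whether the genes below were among them was not examined. Clybl, a mitochondrial enzyme of itaconate breakdown, rose in both arms, by 0.20 per doubling of time in adiponectin cultures (limma adjusted p = 0.0372) and by 0.24 in control cultures (0.0189). Sdhd, a subunit of succinate dehydrogenase, had slopes of 0.15 in adiponectin cultures (limma adjusted p = 0.0331) and 0.09 in control cultures (0.159). Spr, the last enzyme of tetrahydrobiopterin synthesis, had slopes of 0.07 in adiponectin cultures (limma adjusted p = 0.187) and 0.11 in control cultures (0.0401). Azin1, which protects ornithine decarboxylase from its inhibitor, had slopes of -0.09 in adiponectin cultures (limma adjusted p = 0.245) and -0.18 in control cultures (0.0270). Chil3, a chitinase-like gene of alternative activation that neutrophil precursors also express, fell in both arms, with slopes of -0.75 in adiponectin cultures (limma adjusted p = 0.0301) and -0.86 in control cultures (0.0184). Il4ra and Clec10a, of the same list, went the other way in adiponectin cultures, with slopes of 0.15 (limma adjusted p = 0.0232) and 0.45 (0.0489). In control cultures their slopes were 0.09 (limma adjusted p = 0.104) and 0.17 (0.369). The slopes were not shown to differ between the arms for any of these genes, since no gene passed the test of that difference.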
